A study of Mus musculus with 2 samples.

Results

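The genes described here encode the oxidoreductases that interconvert alcohols, aldehydes, ketones and carboxylic acids in the colon: alcohol dehydrogenases, aldehyde dehydrogenases, aldo-keto reductases and hydroxysteroid dehydrogenases. They were chosen by name, as every gene whose symbol starts with Aldh, Akr1, Akr7, Hsd11b, Hsd17b or Hsd3b, or with Adh followed by a digit, and which had a probe well above background on at least 1 array. Of 65 such symbols in the gene table, 63 had a probe on the arrays and 49 had a value, out of 14679 genes with a value in all. RNA of whole colon was compared between C57BL/6 mice that carried the Villin-Cre transgene alone (Villin-Cre) and mice that carried it together with floxed alleles of the EP4 gene (Villin-Cre; EP4flox/flox, called EP4 cKO). Both genotypes therefore shared the Cre transgene, which is driven in the intestinal epithelium, so that cells of the stroma, blood vessels and immune system keep the EP4 gene. The mice of the study were 8 weeks old and untreated here, and each array received RNA that had been mixed from 3 pools of colon. There was 1 Agilent array with 1 colour (Cy3) per genotype, so no difference has a replicate check, no test was possible and every value describes these arrays.

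Enzymes of these families work in relay. Alcohol dehydrogenases and some short-chain dehydrogenases turn alcohols, retinol among them, into aldehydes, and aldehyde dehydrogenases turn the aldehydes into acids, retinoic acid among them. Aldo-keto reductases run in the opposite sense and reduce sugars, lipid aldehydes and ketosteroids. Hydroxysteroid dehydrogenases switch steroids between active and inactive forms, and several members of the HSD17B family act on fatty acids or sterol precursors instead. In the colon such enzymes handle aldehydes made by microbes, from diet and from lipid peroxidation, and the enzyme encoded by Hsd11b2 keeps glucocorticoids away from the mineralocorticoid receptor of the surface epithelium.

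Signals are given as normalized signal, the scanner software's processed intensity scaled on each array to a trimmed mean of 2500, and differences as the log2 ratio of EP4 cKO over Villin-Cre of the brightest probe of a gene. The software's own error of the signal gave a median error of 0.20 for the log2 ratio of a member (range 0.20 to 0.57). This error covers 1 hybridization and not the mice. The number of probes well above background, of 56593, was 25683 for the array labelled Villin-Cre and 29177 for that labelled EP4 cKO, and 0 spots were saturated. Ptger4, the gene of EP4, went from 6227 (Villin-Cre) to 5661 (EP4 cKO) with its brighter probe and from 393 to 592 with the dimmer, so it did not check the labels, on which every direction rests. Probe signals are not comparable between genes, and in RNA of whole tissue fewer cells of a type and less RNA per cell cannot be told apart.

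Most of these enzymes differed little between the arrays, and more of them were lower than higher in EP4 cKO. More than 2-fold higher were 2 of 49 members (4.08%), Adh6a and Akr1c18, against 4.88% of all genes with a value. More than 2-fold lower was 1 of 49 (2.04%), Hsd3b2, against 7.98% of all genes. Akr1c18 had a value through the EP4 cKO array alone, and over genes measured on both arrays the shares were 2.17% against 4.05% higher and 2.17% against 6.26% lower. At a lower limit, with the genes past 2-fold included, 14 members (28.6%) had a log2 ratio below -0.5, against 22.2% of all genes, and 5 (10.2%) had one above 0.5, against 11.8%. The median of the members was -0.21 and that of all genes -0.10, with 65.3% of members and 57.5% of all genes below 0. The latter include 912 genes with a ratio of exactly 0, against 1 member. Over genes measured on both arrays the medians were closer, at -0.23 and -0.15, with 32 of 46 members and 8070 of 12808 genes below 0.

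Where the arrays are set to each other decides the sign of small ratios. With the 75th percentile as the scale, with normexp and quantile normalization, with a loess curve, or with the trimmed mean taken over all spots, the median ratio of probes measured on both arrays moved up by 0.16, 0.16, 0.17 and 0.12 and the median of all genes came to 0.00. The median of the members was then -0.06, -0.15, -0.09 and -0.10, still below that of all genes. Across these scalings 7 members changed sign at least once: Akr1b3, Akr1b8, Akr1c19, Akr1cl, Aldh3a2, Hsd17b2 and Hsd3b7. Scaling to the E1A control spots, which was chosen after the data were seen and for which equal spiking is not stated, moved that median by 1.05, and then 48 of 49 members lay above 0, with a median of 0.84 beside 0.89 for all genes. Directions in the following are therefore relative to the other genes of the arrays.

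**Figure D1:**
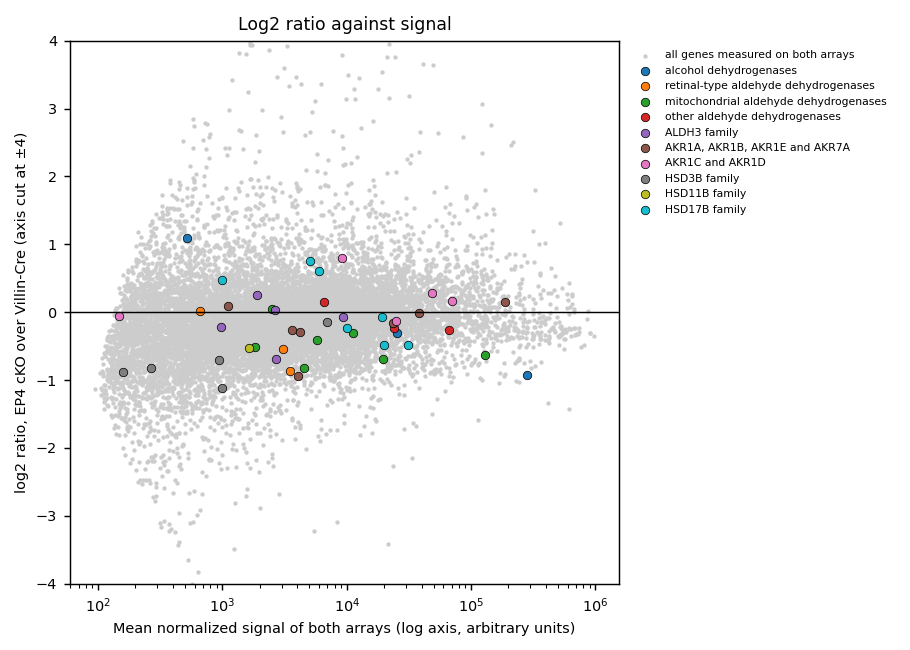
Log2 ratio of EP4 cKO over Villin-Cre (vertical axis, cut at 4 in either direction) against the mean normalized signal of both arrays (horizontal log axis, arbitrary units), with the 46 members measured on both arrays in colour by enzyme group and all other genes measured on both in grey. In the brightest quartile of genes, the 16 members had a median of -0.25 and all genes one of -0.04.

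The ratios of all genes varied with the signal of the probe. In the dimmest quartile of the genes measured on both arrays, the median of all genes was -0.32 and that of 5 members was -0.06. In the next quartile the values were -0.18 for all genes and -0.21 for 11 members. In the third they were -0.11 and -0.25 for 14 members, and in the brightest quartile -0.04 and -0.25 for 16 members. Thus the members lay below the other genes of like signal in the 3 brighter quartiles, by the widest margin in the brightest, and above them in the dimmest.

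**Figure D2:**
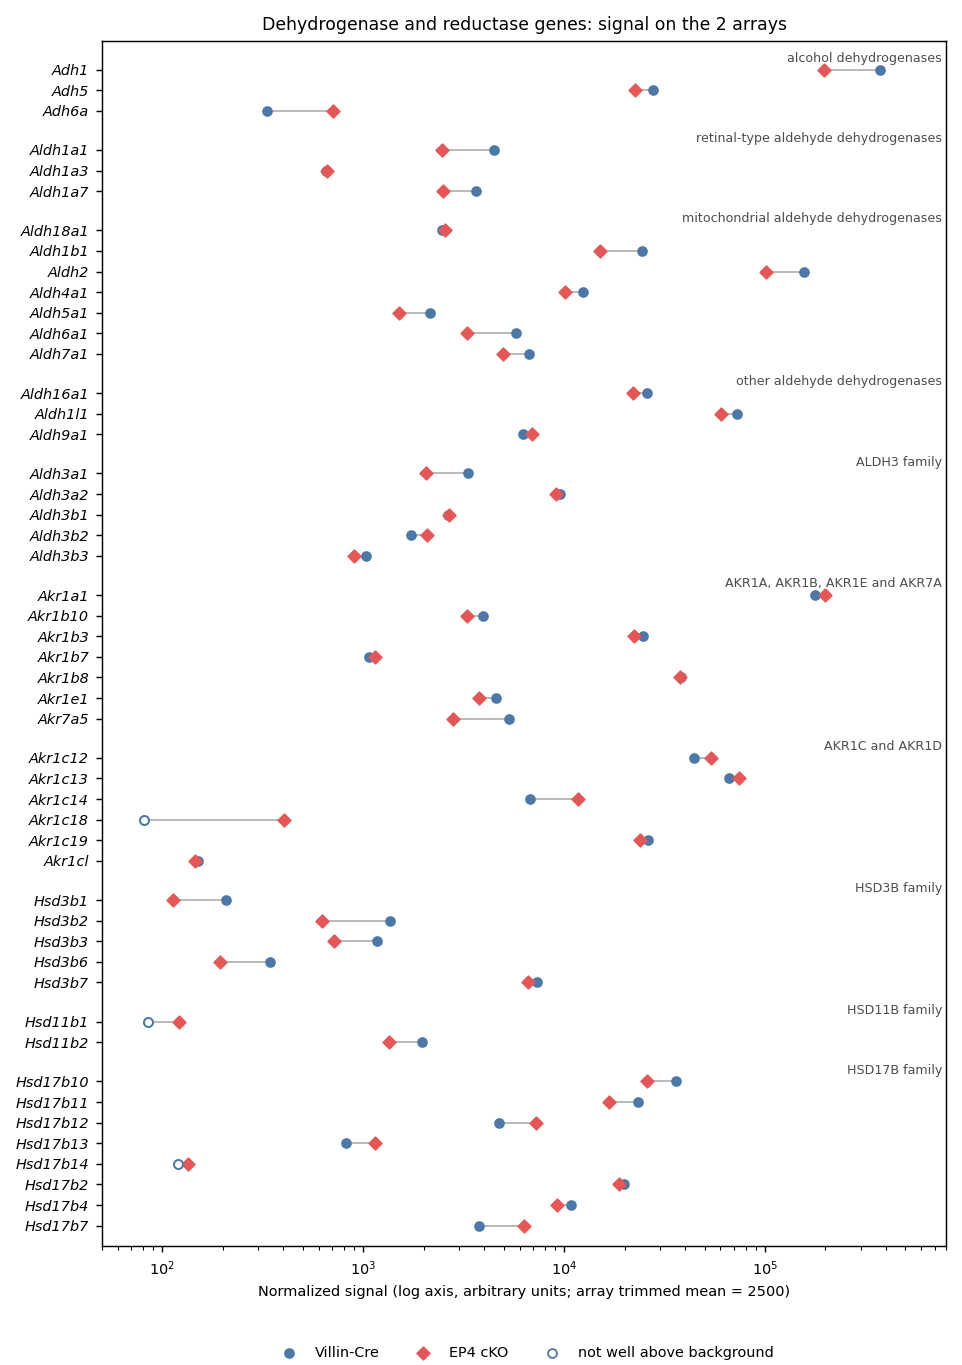
Normalized signal (log axis, arbitrary units) of the 49 members on the Villin-Cre array (blue circles) and the EP4 cKO array (red diamonds), grouped by enzyme family, with open circles for Akr1c18, Hsd11b1 and Hsd17b14, which were not well above background for Villin-Cre. The longest lines belong to Akr1c18, Hsd3b2 and Adh6a, and the brightest probe is that of Adh1, at 372383 and 196320.

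The start regions of the genes past 2-fold, of Adh1 beside Adh6a and of the 3 measured neighbours of Hsd3b2 are shown to let their letters be compared, and no ratio was tied to them. Each line holds the 150 bases before the annotated start, read 5′ to 3′ on the strand of the gene, from RefSeq on GRCm38.p6. Capitals mark matches, on either strand, to 8 motifs searched. They were the box TATAAA, the box CCAAT, the half-site AAGGTCA of NR5A and ERR receptors, the HNF4 site CAAAGTCCA, the CDX site TTTATTG, the antioxidant response element core TGACNNNGC, the STAT site TTCNNNGAA and the core of the interferon-stimulated response element, with a spacer of any bases between its GAAA parts. Matches to different motifs could overlap.
Adh1 (chr3:138277435-138277584, + strand): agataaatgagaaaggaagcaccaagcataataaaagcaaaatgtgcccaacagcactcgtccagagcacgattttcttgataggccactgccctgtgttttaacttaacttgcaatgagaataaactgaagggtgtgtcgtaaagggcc
Adh6a (chr3:138313136-138313285, + strand): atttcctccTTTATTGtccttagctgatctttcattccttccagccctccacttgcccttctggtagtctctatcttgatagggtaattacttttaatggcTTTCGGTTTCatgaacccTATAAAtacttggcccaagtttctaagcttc
Akr1c18 (chr13:4150647-4150796, - strand): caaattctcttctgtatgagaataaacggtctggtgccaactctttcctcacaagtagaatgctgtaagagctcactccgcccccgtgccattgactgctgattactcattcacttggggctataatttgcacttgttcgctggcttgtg
Hsd3b2 (chr3:98724544-98724693, - strand): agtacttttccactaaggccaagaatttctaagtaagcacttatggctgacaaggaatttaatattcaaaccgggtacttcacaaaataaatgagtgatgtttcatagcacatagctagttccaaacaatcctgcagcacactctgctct
Hsd3b3 (chr3:98763129-98763278, - strand): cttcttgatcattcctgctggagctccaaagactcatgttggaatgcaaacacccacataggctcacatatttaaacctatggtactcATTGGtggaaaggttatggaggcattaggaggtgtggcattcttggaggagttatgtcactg
Hsd3b6 (chr3:98814444-98814593, - strand): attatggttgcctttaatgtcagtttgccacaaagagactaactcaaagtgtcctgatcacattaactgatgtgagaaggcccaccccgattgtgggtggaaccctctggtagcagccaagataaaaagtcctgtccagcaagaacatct
Hsd3b1 (chr3:98859795-98859944, - strand): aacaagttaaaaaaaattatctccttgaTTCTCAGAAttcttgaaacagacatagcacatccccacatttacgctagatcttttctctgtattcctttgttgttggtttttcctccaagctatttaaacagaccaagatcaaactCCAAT

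The window of Adh6a held a TATA box 31 bases before the start, a match to the interferon-stimulated element core at 49 and one to TTTATTG at 141, whereas those of Adh1, Akr1c18, Hsd3b2 and Hsd3b6 held none of the 8 in these bases. Promoters were in the table for 39 of the 49 members, as 43 windows. Over 250 bases before the start, CCAAT stood in 24 of 43 member windows (55.8%) and in 33.8% of 32851 promoters of all genes. TATAAA stood in 4 (9.3%), against 12.4% of all. The interferon-stimulated element core was present in 3 member windows (6.98%), those of Adh6a, Akr1c14 and Hsd17b10, against 2.98% of all, and TTTATTG in 3, those of Adh6a, Akr1b7 and Akr1c14, against 4.2%. CAAAGTCCA was found in 0 member windows and in 0.384% of all. TGACNNNGC, TTCNNNGAA and AAGGTCA stood in 4, 5 and 3 member windows, with shares of all promoters of 10.2%, 7.02% and 4.08%. These matches describe letters and not binding.

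Adjacent alcohol dehydrogenase genes on chromosome 3 lay on opposite sides. Adh1, the class I enzyme that oxidizes ethanol and retinol, went from a normalized signal of 372383 in Villin-Cre to 196320 in EP4 cKO, a log2 ratio of -0.92 ± 0.20 (software error), and its second probe, at 55495 and 27090, gave -1.03. Over the other settings except the E1A scaling its ratio stayed between -0.98 and -0.75, and with E1A it was 0.13. Adh6a, the next gene along the chromosome and a less studied relative, went from 333 to 711, a log2 ratio of 1.10 ± 0.25 or 2.14-fold. It had 1 probe, and the ratio stayed between 0.95 and 1.34 without the E1A scaling, below 2-fold after normexp with quantile normalization, and was 2.15 with E1A. Adh5, which encodes the ubiquitous class III enzyme that disposes of formaldehyde and S-nitrosoglutathione, was at 27813 and 22537, a log2 ratio of -0.30. Adh4, Adh7 and the pseudogene Adh6-ps1 were not well above background on either array, and Adh6b had no matched probe.

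Aldehyde dehydrogenases made up the largest block, with 18 genes, of which 13 had ratios below 0 and 0 were past 2-fold. In the group called retinal-type here, Aldh1a1, the cytosolic enzyme that makes retinoic acid, had signals of 4499 and 2454, a log2 ratio of -0.87. Aldh1a7, its close relative and neighbour on chromosome 19, had 3662 and 2506, a log2 ratio of -0.55. Aldh1a3, another enzyme of retinoic acid synthesis, was alike on both arrays, at 651 and 662 (0.02). Aldh1a2 and Aldh8a1 were not well above background. The sequences of the probes were not used, so it was not tested how far Aldh1a1 and Aldh1a7 share signal.

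Mitochondrial aldehyde dehydrogenases were lower in 6 of 7 cases, with a median log2 ratio of -0.51. It stayed between -0.51 and -0.35 over the other settings, and with the E1A scaling it was 0.54. Aldh2, the main enzyme for acetaldehyde, had signals of 156446 and 101259, a log2 ratio of -0.63, and its second probe gave -0.74. Aldh1b1, a relative of Aldh2 known from intestinal stem cells and colon tumours, had 24313 and 15013 (-0.70). The ratios of these acetaldehyde enzymes thus lay within the error of 0.20 of each other. The members that finish amino acid breakdown were spread more widely. Aldh6a1, which acts on methylmalonate semialdehyde from valine and thymine, had 5757 and 3269 (-0.82). Aldh5a1, the succinate semialdehyde dehydrogenase of GABA breakdown, had 2147 and 1504 (-0.51). Aldh7a1, which takes part in lysine breakdown, had 6651 and 4985 (-0.42), and Aldh4a1, in that of proline, had 12487 and 10124 (-0.30). The exception was Aldh18a1, which works in the synthetic direction by making the precursor of proline and ornithine, at 2465 and 2554 (0.05). Aldh1l2 was not well above background.

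The remaining aldehyde dehydrogenases were closer to even. Aldh1l1, the folate enzyme that oxidizes formyl-tetrahydrofolate, had 72452 and 60242 (-0.27), and Aldh16a1, a large member without a settled role, had 25884 and 22022 (-0.23). Aldh9a1, which takes part in carnitine synthesis, had 6274 and 6952 (0.15), with 0.18 for its second probe. Of the ALDH3 family, which oxidizes fatty and aromatic aldehydes, Aldh3a1 stood apart, with 3307 and 2053 (-0.69). Aldh3a2, the fatty aldehyde dehydrogenase of the endoplasmic reticulum, was at 9567 and 9106 (-0.07). The Aldh3b genes, which lie side by side on chromosome 19, did not move together: Aldh3b1 was at 2629 and 2676 (0.03), Aldh3b2 at 1737 and 2072 (0.25) and Aldh3b3 at 1038 and 896 (-0.21). The median of the 5 ALDH3 genes was -0.07 and came above 0 with the 75th percentile (0.09), with loess (0.01), with the trimmed mean over all spots (0.04) and with E1A (0.98).

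**Figure D3:**
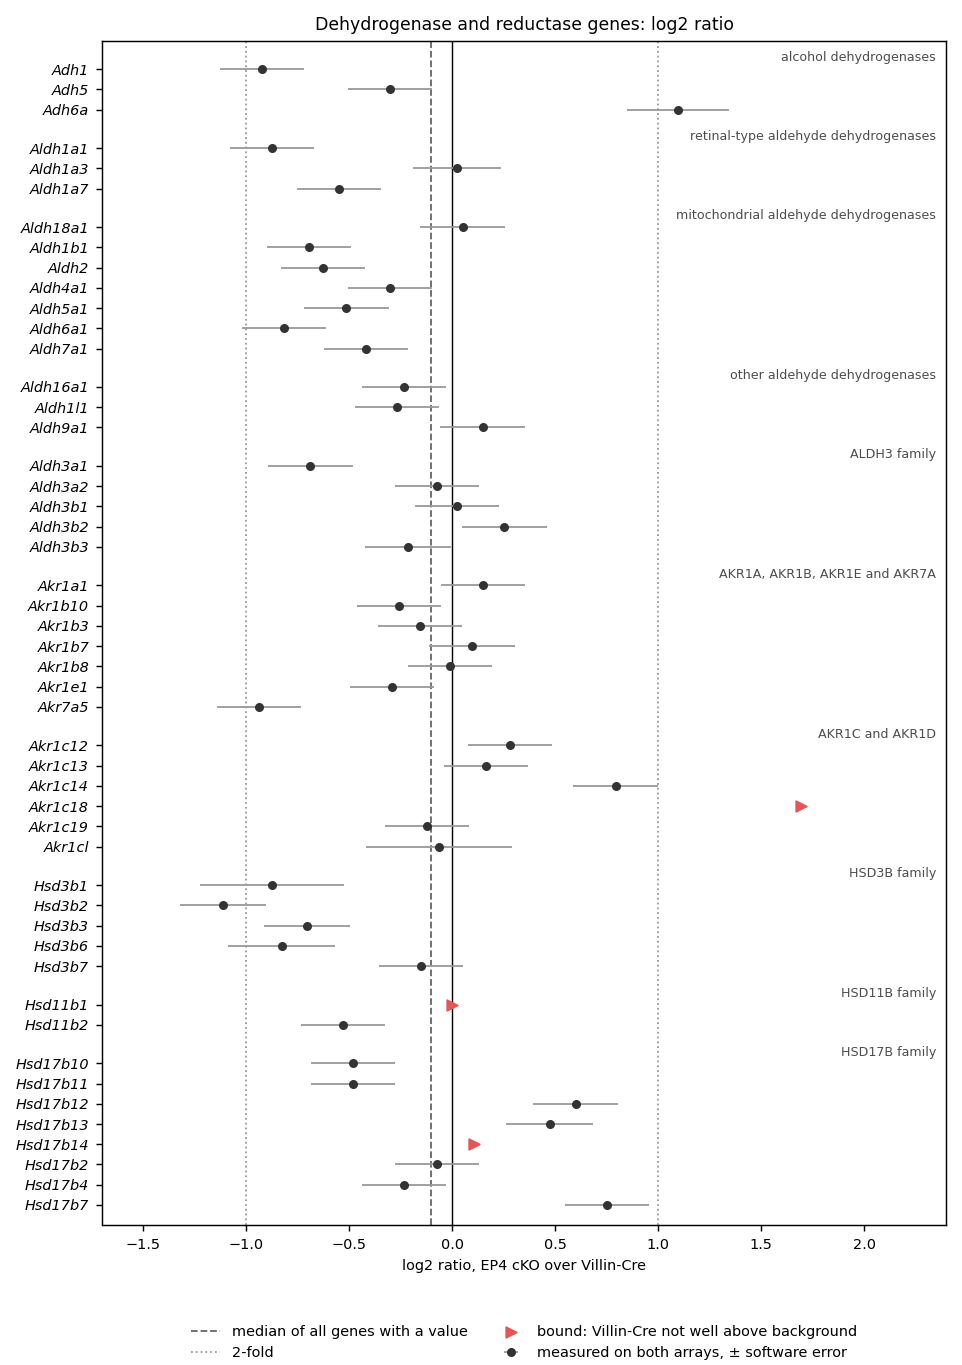
Log2 ratio of EP4 cKO over Villin-Cre for the 49 members by enzyme group (points, with the software error as bars; triangles are bounds for genes not well above background for Villin-Cre), beside lines at 0, at 2-fold and at the median of all genes (-0.10). Points past the 2-fold lines are Adh6a at 1.10, Hsd3b2 at -1.11 and the bound of Akr1c18 at 1.69.

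Aldo-keto reductases lay on both sides of 0 in both sets described here. The AKR1A, AKR1B, AKR1E and AKR7A genes had a median log2 ratio of -0.16, which was 0.00 with the 75th percentile, below 0 with the other planned settings and 0.90 with E1A. Akr1a1, the general aldehyde reductase that also serves vitamin C synthesis in mice, had 178046 and 197866 (0.15). Akr1b3, aldose reductase, had 24819 and 22277 (-0.16) and gave -0.33 with its second probe. Its neighbours on chromosome 6 were likewise close to even. Akr1b8, an intestinal enzyme for lipid aldehydes and retinal, had 38095 and 37830 (-0.01), Akr1b10 had 3939 and 3291 (-0.26) and Akr1b7, first known from the vas deferens, had 1069 and 1144 (0.10). Akr1e1, a reductase of anhydrofructose, had 4604 and 3764 (-0.29). Akr7a5, which reduces succinate semialdehyde and aflatoxin aldehyde, lay lowest of the aldo-keto reductases, with 5338 and 2788, a log2 ratio of -0.94. It stayed between -0.94 and -0.78 except with E1A (0.12), just short of 2-fold.

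The AKR1C genes act on the ketone groups of steroids, bile acids and prostaglandins. Their median log2 ratio was 0.22, with 4 of 6 genes above 0 (all 6 with the 75th percentile). The 4 included Akr1c18, which had a value through the EP4 cKO array alone. Over genes measured on both arrays 3 of 5 were above 0, with a median of 0.17, within the software error of 0.20. The group median was above 0 with every setting run, between 0.17 and 0.38 without the E1A scaling and 1.28 with it. Akr1c18, whose enzyme inactivates progesterone, was not well above background for Villin-Cre (81.4) and had a signal of 405 for EP4 cKO. With its dim side held at 125, the lowest signal well above background on that array, it was at least 3.23-fold higher (log2 ratio of at least 1.69). The bound was 1.21 after normexp with quantile normalization and at least 1.81 with the other scalings. Akr1c14, next to it on chromosome 13, encodes a reductase of dihydrotestosterone and had 6747 and 11697, a log2 ratio of 0.79, with 0.48 for its second probe. The genes further along the cluster were nearer to 0. Akr1c12 had 44154 and 53668 (0.28), Akr1c13 had 66152 and 74220 (0.17) and Akr1c19 had 26080 and 23939 (-0.12). Akr1cl, at 151 and 145 (-0.06 ± 0.36), was near the floor. Akr1c12 and Akr1c13 encode closely similar enzymes of the gut, and whether their probes share signal was not tested. Akr1c6, Akr1c21 and Akr1d1 were not well above background, and Akr1c20 had no matched probe.

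**Figure D4:**
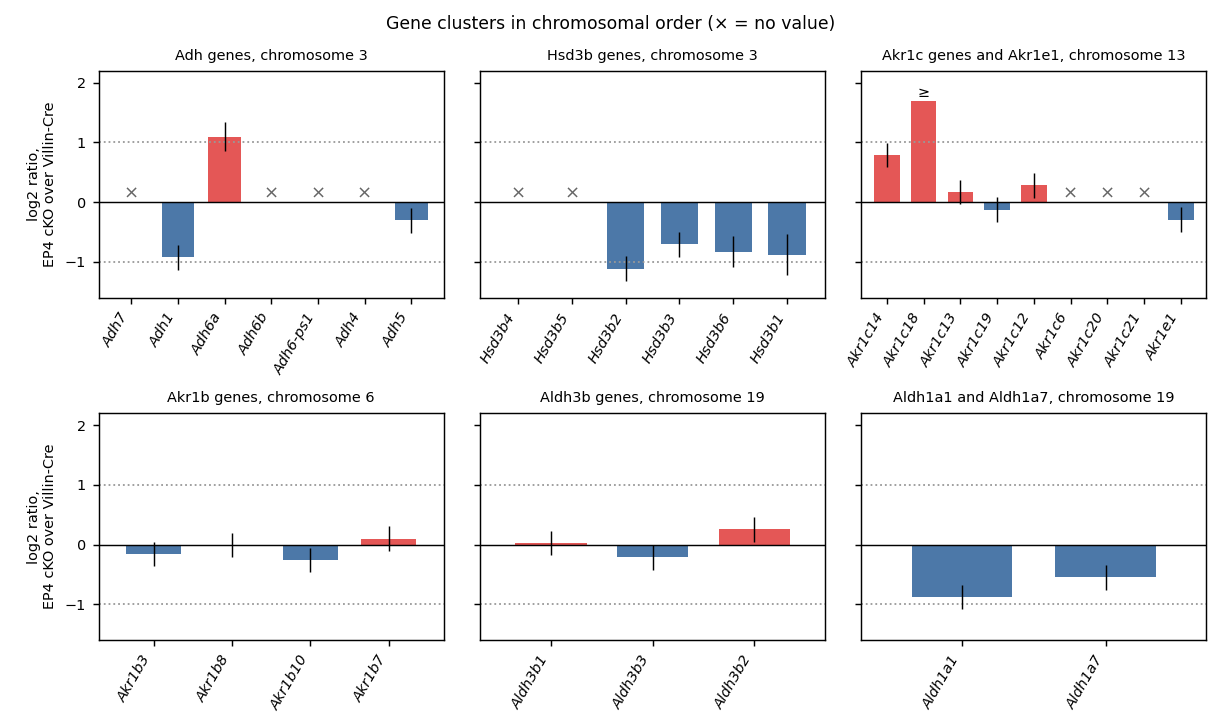
Log2 ratio of EP4 cKO over Villin-Cre (bars, with the software error as lines) for the members that lie in 6 gene clusters, in their order on the chromosome, with crosses for genes without a value and ≥ for the bound of Akr1c18. The 4 measured genes of the Hsd3b cluster lay between -1.11 and -0.71, whereas Adh1 (-0.92) and Adh6a (1.10) lay side by side in opposite directions.

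The HSD3B group had the lowest median of all groups, -0.83 over 5 genes, although after normexp, at -0.26, the medians of the alcohol, retinal-type and mitochondrial groups were lower. Enzymes of this family make progesterone-type and androstenedione-type steroids from their precursors. Hsd3b2 went from a signal of 1354 in Villin-Cre to 626 in EP4 cKO, a log2 ratio of -1.11 ± 0.21, 2.16-fold lower, and its second probe, at 1086 and 590, gave -0.88. Hsd3b3 had 1167 and 716 (-0.71 ± 0.21), and Hsd3b6 had 342 and 193 (-0.83 ± 0.26). Hsd3b1, the form of steroid-producing glands in other tissues, had 207 and 113 (-0.88 ± 0.35). All 4 were lower for EP4 cKO and measured on both arrays, but Hsd3b1 and Hsd3b6 were in the dimmest quartile of genes, where the median of all genes was -0.32. After normexp with quantile normalization they came to -0.24 (Hsd3b1), -0.26 (Hsd3b6), -0.47 (Hsd3b3) and -0.77 (Hsd3b2). Hsd3b2 was past 2-fold only with the scaling of the study and 1 probe per gene, and it was -0.06 with E1A. These genes are near-identical copies, so how much of the signal each probe takes from its neighbours was not tested and the 4 ratios may not be separate measurements. Hsd3b4 and Hsd3b5, at the end of the cluster, were not well above background. Hsd3b7, on another chromosome, encodes the enzyme of bile acid synthesis and differed little, at 7342 and 6620 (-0.15), with its sign turned with the 75th percentile (0.01) and with E1A (0.91).

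Hsd11b2 and Hsd11b1 encode opposing enzymes, which inactivate and regenerate corticosterone. Hsd11b2 had 1951 and 1352, a log2 ratio of -0.53, and stayed between -0.53 and -0.36 except with E1A (0.53). Hsd11b1 was near background on both arrays, at 84.6 and 122, and well above it for EP4 cKO alone, so that no fold is given. Of 11 genes known to respond to mineralocorticoid or glucocorticoid hormones, all had a value and 3 were past 2-fold, each of them higher, beside 4.88% of all genes, and the median was 0.52. Scnn1g, a subunit of the epithelial sodium channel, had 710 and 5242 (2.88), Per1 had 5799 and 13896 (1.26) and Fkbp5 had 9677 and 20525 (1.08). Dusp1, the lowest of the list, had 17684 and 11503 (-0.62). Nedd4l (-0.14) was also below 0, and Klf9 (0.04) was close to even. Scnn1b, another subunit of the channel, was not well above background for Villin-Cre (84.4 and 102), and its ratio was set to 0. The receptors themselves were even, with 8642 and 8579 for Nr3c1 (-0.01) and 2189 and 2203 for Nr3c2 (0.01). H6pd, which supplies the cofactor of the Hsd11b1 enzyme, had 1071 and 3192 (1.58).

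The HSD17B family was divided, with 4 genes below 0 and 4 above and a median of 0.02. The median was -0.07 over genes measured on both arrays and 0.00 after normexp. It was 0.17 with the 75th percentile, 0.20 with loess, 0.13 with the trimmed mean over all spots and 1.07 with E1A. Hsd17b7, which acts in cholesterol synthesis as well as on oestrone, had 3757 and 6336, a log2 ratio of 0.75, with 0.80 for its second probe. Hsd17b12, the ketoacyl-CoA reductase of very long chain fatty acid synthesis, had 4763 and 7217 (0.60). Both of these lipid-building genes were above 0 in every setting run. Hsd17b13, a protein of lipid droplets, had 825 and 1147 (0.47). Its relative Hsd17b11 had 23339 and 16751 (-0.48). Hsd17b10, a mitochondrial enzyme of isoleucine breakdown and a part of mitochondrial RNase P, had 36002 and 25840 (-0.48). Hsd17b4, the peroxisomal enzyme of fatty acid oxidation, had 10814 and 9194 (-0.23). Hsd17b2, which inactivates oestradiol and testosterone in surface epithelia, had 19789 and 18843 (-0.07). Hsd17b14 was close to the floor, at 119 and 135. Hsd17b1, Hsd17b3 and Hsd17b6 were not well above background.

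At the limit for a value, signal well above background on at least 1 array, the members just inside, by their brighter array, were Hsd11b1 (84.6 and 122), Hsd17b14 (119 and 135) and Akr1cl (151 and 145), and those just outside were Akr1c21 (83.8 and 12.0), Akr1d1 (83.2 and 26.1) and Aldh8a1 (75.1 and 58.2). All 3 members seen on 1 array only were seen on that of EP4 cKO, the array with more probes above background.

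**Figure D5:**
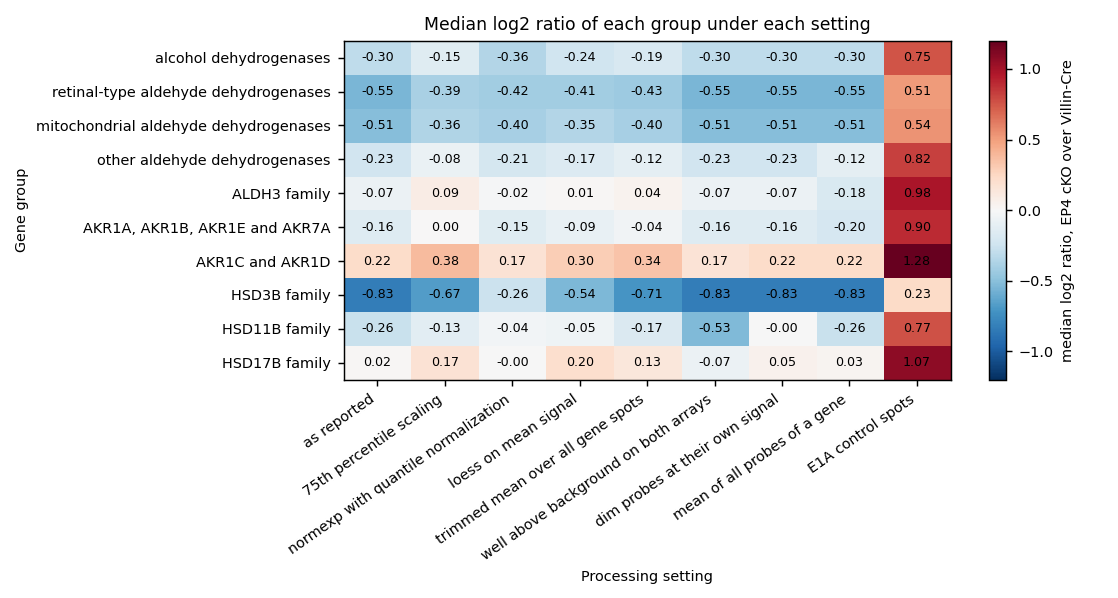
Median log2 ratio of EP4 cKO over Villin-Cre of each enzyme group (rows, colour and number) under the reported setting and 8 others (columns). The alcohol, retinal-type, mitochondrial and other aldehyde dehydrogenase groups are below 0 in all columns but that of the E1A control spots. So are the HSD3B and HSD11B families. In the E1A column all 10 groups are above 0. The AKR1C group is above 0 in every column, at 0.17 over genes measured on both arrays.

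Several partners of these enzymes in the same pathways differed by more than any member measured on both arrays. Of 37 genes of retinoid handling, 28 had a value, and past 2-fold were 6 in the higher and 4 in the lower direction (4.88% and 7.98% of all genes were), with a median of -0.06. The retinol dehydrogenase genes upstream of Aldh1a1 were in part higher, with 7620 and 23713 for Rdh9 (1.64) and 2249 and 5546 for Rdh10 (1.30), and the carrier gene Rbp4 was higher too (1753 and 6225, 1.83). Dhrs3, which returns retinal to retinol, had 23736 and 8936 (-1.41). Lower as well were Bco2, a carotenoid-cleaving enzyme, at 2785 and 568 (-2.29), and Rdh5, at 1542 and 746 (-1.05). Isx, an intestinal repressor of carotenoid uptake, had 354 and 62.3 (-2.51). Its EP4 cKO signal was near 57.8, the lowest signal well above background on that array. The 6 higher genes included Dhrs9 (60.2 and 254), which had a value through the EP4 cKO array alone.

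Other carbonyl reductases, oxidases and glyoxalases had values for 22 of 27 genes, with a median of -0.05. More than 2-fold higher were 3 (4.88% of all genes were) and lower were 0 (7.98% of all genes). The 3 were Xdh, xanthine dehydrogenase, with 2190 and 9282 (2.08), Cbr3 with 26871 and 65019 (1.27) and Cbr2 with 19446 and 43177 (1.15). Among 29 partners of the aldehyde dehydrogenases in amino acid and GABA breakdown, 25 had a value and the median was -0.22, close to that of the members. Oat, ornithine aminotransferase, whose product leads to the substrate of Aldh4a1, had 54821 and 17110 (-1.68), and Aass, the entry enzyme of lysine breakdown, was at least 2.07-fold higher (31.9 and 259). Of 22 genes of steroid synthesis and steroid receptors, 15 had a value, with a median of -0.14. More than 2-fold higher was 1 (H6pd) and lower were 3, beside 4.88% and 7.98% of all genes. Nr5a2, a nuclear receptor of epithelial steroid synthesis, had 7025 and 3402 (-1.05), Cyp27a1 had 468 and 197 (-1.25), and Esr1 was at least 13.6-fold lower (788 and 25.1). Star, Cyp11a1 and Cyp11b1 were not well above background, whereas Cyp17a1, at 15641 and 10986 (-0.51), and Cyp21a1, at 534 and 377 (-0.50), were measured on both arrays.

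Markers of cell types differed between the arrays as well. For comparison with their counts, 4.88% of all genes were more than 2-fold higher and 7.98% were more than 2-fold lower. Colon epithelium was present on both arrays, with all 10 marker genes measured, a median log2 ratio of 0.08 and 1 gene past 2-fold, Krt20 (1.80). Of 8 surface colonocyte genes 3 were more than 2-fold higher, Tmigd1 (3.94), Clca4a (3.65) and Aqp8 (236302 and 473610), and the median was 0.52. Guca2a (-0.75) and Car1 (-0.42) were below 0. Of 7 goblet cell genes 1 was more than 2-fold higher, Clca1 (1.31), and the median was 0.09. Tff3 (-0.75), Zg16 (-0.23) and Muc2 (-0.06) were below 0. Of 7 fibroblast genes with a value, 6 were more than 2-fold lower, with a median that is a bound (-4.50 or lower, that of Col1a1). The summed signal of all 8 listed genes, Pdgfra included, went from 15172 in Villin-Cre to 2333 in EP4 cKO. Dcn (-5.77) and Col1a2 (-5.03) were the lowest measured on both arrays. Col1a1, Col3a1 and Lum were not well above background for EP4 cKO, nor was Pdgfra on either array. For 6 smooth muscle genes the median was 0.19, and Cnn1 (-2.73) and Myl9 (-2.15) were more than 2-fold lower. Myh11, a defining marker of the muscle coat, did not exceed background on either array. With Myh11 included, the sums were 30760 and 45638. Macrophage and dendritic cell genes had a median of 0.68, with Mrc1 (at least 4.31-fold) and Itgax (1.73) more than 2-fold higher. Csf1r (-0.79) and Cd68 (-0.09) were below 0, and Adgre1 and Lyz2 were not above background. The sums over all 8 listed genes were 63398 and 88470, and Itgam (49347 and 68598) made up most of both. Small intestine genes had a median of 1.02 over 5 of 8, with Defa24 (at least 9.16-fold), Fabp6 (1.73) and Apob (1.02) more than 2-fold higher. The sums over all 8, including those not above background, were 17055 and 42234. Adipocyte markers were not above background but for Lep (-0.04). Of 6 liver markers 3 had a value. Ttr was at 17629 and 12562 and Alb at 275 and 161, while Serpina1a was at least 1.57-fold higher (33.8 and 197). Apoa1, Fgb and Hpx were not above background. Of 6 adrenal and gonad markers 3 had a value, Cyp17a1, Cyp21a1 and Nr5a1 (473 and 436). The part of these differences in the ratios of the members was not tested.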

How the data were processed

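Total RNA of whole colon, combined from 3 pools per genotype, was labelled with Cy3 and hybridized to 1 Agilent mouse array for Villin-Cre and 1 for EP4 cKO. The authors deposited intensity tables from Feature Extraction (12.0.3.1 in the file headers, 11.5.1.1 in the submitters' processing notes), with background subtracted and without scaling between arrays. Control and outlier spots were left out, spots of a probe were averaged, and each array was scaled to a trimmed mean of 2500 without 2% of probes at each end, as in the study's methods (factors 3.45 and 2.68). Over 163 probes with 10 spots on both arrays the median SD of the log2 ratio was 0.034. Probes were named through RefSeq accessions on GRCm38.p6 (32989 of 56593, 58.3%, giving 22909 genes), and the brightest probe above background stands for a gene. For probes well above background on 1 array, the dim array was given the probe's own signal or, if larger, the array's lowest signal well above background (125 in Villin-Cre, 57.8 in EP4 cKO), and a bound under 1 was set to a log2 ratio of 0.

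No test was possible with 1 array per genotype, and signal over background and the number of arrays limit the precision. Every member above background was named, and from each list the genes past 2-fold, up to 3 in each direction, together with genes a member is set beside. Any other gene was chosen after its values were seen, as were the enzyme groups. The members and lists were chosen with earlier results of these data known. Alternatives were the 75th percentile, normexp (offset 50) with quantile normalization on median signals, loess (span 0.3), the trimmed mean taken over all spots, probes above background on both arrays, no filter, the mean of all probes, thresholds of 1.5-fold and 3-fold, and E1A scaling, added later. The steps were tested on simulated data. The value of 1 gene is not reported here. Python 3.11.15, numpy 2.4.6, pandas 2.3.3, matplotlib 3.10.9, R 4.3.3 and limma 3.58.1 were used.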

Additional observations from a re-analysis of the deposited data

How the results depend on the processing

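The median log2 ratio of the members was -0.21 and lay between -0.29 and -0.06 over the other settings, and at 0.84 with the E1A control spots. It was -0.29 over 63 members with dim probes at their own signal, against -0.37 for all genes, the only setting in which the members lay above all genes. The count more than 2-fold higher was 2, and came to 1 at a 3-fold threshold (2.04%, against 2.21% of all genes), to 5 at 1.5-fold (10.2%, against 9.86% of all genes), to 1 after normexp with quantile normalization (2.04% against 4.12%), to 1 over genes measured on both arrays (2.17% against 4.05%) and to 18 with E1A (36.7% against 40.6%). The count more than 2-fold lower was 1, and came to 0 at 3-fold, with the 75th percentile, normexp, loess, the trimmed mean over all spots, the mean of all probes and E1A (against 3.73%, 6.27%, 2.68%, 5.81%, 6.67%, 8.14% and 2.28% of all genes), to 11 at 1.5-fold (22.4%, against 18.7% of all genes) and to 11 with dim probes at their own signal. In the last, 10 of the 11 were members not well above background on either array, and 31.7% of all genes were lower. The cause of the other changes was not tested. No paired analysis was possible because there was 1 array per genotype, and for the same reason leaving out a sample was not possible. Signal over background sets which members have a fold, and the spread between mice is not known.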
